A study of Mus musculus with 3 samples.

Results

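Endothelial cell barcodes with UMIs of Car4, Ednrb or both, labelled as lung capillary endothelium, were picked out of single-cell RNA libraries made from mouse tumours. Of 32801 kept cell barcodes, 164 met the definition. The members were chosen by their UMI counts of 13 genes, named here. Car4 encodes a membrane-bound carbonic anhydrase and Ednrb the endothelin receptor type B. A member had at least 1 UMI (unique molecular identifier, a counted RNA molecule) in at least 2 of the 5 endothelial genes Pecam1, Cdh5, Cldn5, Egfl7 and Tie1, no UMI of the leukocyte gene Ptprc, and at most 2 UMIs of the keratins Krt8 and Krt18 together. It also had at least 2 UMIs of Car4 and Ednrb together and at most 1 UMI of Esm1, Angpt2 and Pgf together, 3 genes of sprouting endothelium. The first 3 criteria left 995 endothelial barcodes, of which the members were 16.5%. The other 831 fell into 746 with fewer Car4 and Ednrb UMIs and at most 1 UMI of the sprouting genes (other endothelial barcodes), 68 with at least 2 UMIs of the sprouting genes (angiogenic barcodes), and 17 that met both the Car4 Ednrb and the sprouting limit and were left out.

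The mice bore LLC1-sgLkb1 cells, which are Lewis lung carcinoma cells labelled as carrying a knockdown of LKB1, a kinase that suppresses tumours. Tail vein injection placed the cells in the lung, and a subcutaneous tumour, the one irradiated in both RI groups, was started 3 weeks after that. The library labelled CKO+RI came from a host with Sfrp2, a secreted Wnt-binding protein, deleted in Col1a2-expressing cells, which are mostly fibroblasts, and given radiation plus an immune checkpoint inhibitor. Flox+RI came from an Sfrp2 fl/fl host given both treatments, and Flox+ICI from an Sfrp2 fl/fl host given the inhibitor alone. Each group had 1 library, the labels do not state how many animals it came from, and the tissue label reads only tumour, without saying whether the lung or the subcutaneous one was taken. Members numbered 37 (CKO+RI), 13 (Flox+RI) and 114 (Flox+ICI).

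The gas-exchange capillaries of the lung hold 2 kinds of endothelial cell in the mouse. Aerocytes are large, thin cells that carry Car4 and Ednrb, lie against the alveolar type 1 epithelium and take part in gas exchange and leukocyte traffic. General capillary cells, marked by Gpihbp1, regulate vascular tone and can divide to renew both kinds. The membrane carbonic anhydrase of the capillary wall speeds the exchange between bicarbonate and carbon dioxide, and VEGF-A from the epithelium acts on aerocytes through Kdr.

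The label was checked on genes the definition did not use. Of 28 aerocyte genes other than Car4 and Ednrb, a member had a UMI in a median of 12 (CKO+RI), 11 (Flox+RI) and 13 (Flox+ICI), against 4 in other endothelial barcodes of each library and 8.5, 7 and 7 in angiogenic barcodes. The summed level of these 28 genes was 9531 (CKO+RI), 9174 (Flox+RI) and 12597 CPM (Flox+ICI) in members, against 3031, 2167 and 3199 CPM in other endothelial barcodes of those libraries (CPM, UMIs per 1000000 UMIs of the set). In angiogenic barcodes the sum was 5963 (CKO+RI), 3740 (Flox+RI) and 4086 CPM (Flox+ICI), under the members and above the other set. Members also carried general capillary genes, at a summed level of 12577 (CKO+RI), 12449.9 (Flox+RI) and 14545 CPM (Flox+ICI), against 10762, 4935 and 8641 CPM in other endothelial barcodes. Gpihbp1 was found in 49.4% of the members, so the set is called by its genes, Car4 Ednrb barcodes. Aerocyte genes were uneven among them, with 2 to 23 of the 28 found per member. No UMI of Car4, Emp2, Fibin or Hpgd was found in 2 of 37 (CKO+RI), 3 of 13 (Flox+RI) and, in Flox+ICI, 1 of 114 members, which held 20.5%, 49.6% and 0.277% of the member UMIs of those libraries. All 3 of these Flox+RI members carried Gpihbp1.

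Promoter sequence of the 2 defining genes, of Fibin, a secreted factor, and of Rgs6, a regulator of G protein signalling, is shown because the first pair defines the set and the second pair was among its most raised genes. The 250 bases before the start annotated in RefSeq are printed 5′ to 3′ on the gene's strand, mouse build GRCm38.p6. By the coordinates of the whole genes, the Ednrb and Rgs6 stretches lie inside the gene and the Fibin stretch crosses its start. The stretches lie at chr11:84957504-84957753 (plus strand) for Car4, chr14:103843702-103843951 (minus strand) for Ednrb, chr2:110362994-110363243 (minus strand) for Fibin and chr12:82617249-82617498 (plus strand) for Rgs6. Capitals mark a match to 1 of 4 short motifs, each searched on both strands, namely AGGTGT (T-box), GTAAACA (forkhead), CCGGAAG (ETS) and ACAATG (SOX).
Car4: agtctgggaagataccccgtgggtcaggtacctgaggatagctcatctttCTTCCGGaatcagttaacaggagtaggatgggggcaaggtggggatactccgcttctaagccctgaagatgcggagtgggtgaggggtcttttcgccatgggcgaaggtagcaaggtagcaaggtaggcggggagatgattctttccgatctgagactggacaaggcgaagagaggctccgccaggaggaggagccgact
Ednrb: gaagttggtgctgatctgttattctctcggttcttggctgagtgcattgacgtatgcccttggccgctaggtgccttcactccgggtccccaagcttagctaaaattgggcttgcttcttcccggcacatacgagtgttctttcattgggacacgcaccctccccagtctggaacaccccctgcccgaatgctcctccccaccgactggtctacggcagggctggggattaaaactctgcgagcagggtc
Fibin: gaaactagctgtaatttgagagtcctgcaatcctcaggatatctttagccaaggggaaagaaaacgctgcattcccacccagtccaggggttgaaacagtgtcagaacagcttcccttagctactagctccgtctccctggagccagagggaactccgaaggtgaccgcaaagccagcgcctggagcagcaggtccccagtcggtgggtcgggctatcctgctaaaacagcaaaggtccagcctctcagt
Rgs6: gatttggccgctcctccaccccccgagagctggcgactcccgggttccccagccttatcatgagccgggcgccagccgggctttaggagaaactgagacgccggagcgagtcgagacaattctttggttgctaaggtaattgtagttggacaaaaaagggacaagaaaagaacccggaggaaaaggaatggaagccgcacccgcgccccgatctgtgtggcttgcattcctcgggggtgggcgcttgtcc
Car4 held 1 match, the ETS letters on the reverse strand, and the other 3 stretches held none of the 4 motifs. Of 32851 mouse promoters of that length, 11.8% held the T-box letters, 3.17% the forkhead letters, 6.91% the ETS letters and 10.7% the SOX letters. A promoter was found for 20 of the 30 aerocyte genes, and of these 1 held the T-box, 3 the ETS and 0 the forkhead or SOX letters. A match is a string of letters and not a bound site.

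The libraries held 161250286 (CKO+RI), 101840883 (Flox+RI) and 75543561 UMIs (Flox+ICI), with every barcode at 500 UMIs or more. Median depth over all kept barcodes was 14467.5 (CKO+RI), 2923 (Flox+RI) and 3254.5 UMIs (Flox+ICI), but among members it was 1800 (CKO+RI), 3715 (Flox+RI) and 1586 (Flox+ICI). The 3 deepest members held 31.7% (CKO+RI), 50.2% (Flox+RI) and 8.53% (Flox+ICI) of the member UMIs, so summed levels in the first pair of libraries rest on few barcodes. Sfrp2, the targeted gene, had 46 UMIs in 20 barcodes of the library labelled CKO+RI (0.286 CPM of all kept UMIs), against 12 UMIs in 8 barcodes of Flox+RI (0.119 CPM) and 24 UMIs in 9 barcodes of Flox+ICI (0.319 CPM). It was thus detected in the library labelled as its deletion, at a level above Flox+RI and just under Flox+ICI. The labels do not state which exons are deleted, and counts from outside them would check nothing. Among barcodes with at least 5 Col1a2 UMIs, 4 of 68 (CKO+RI), 6 of 83 (Flox+RI) and, in Flox+ICI, 2 of 76 carried Sfrp2, and members held no Sfrp2 UMI. The 3 pairs of libraries shared 34, 31 and 37 cell barcodes, of which 0 were members.

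Members made up 0.409% (0.288 to 0.564, exact binomial 95% interval) of kept barcodes in the library labelled CKO+RI, 0.0994% (0.0530 to 0.170) in Flox+RI and 1.07% (0.880 to 1.28) in Flox+ICI, where they were most frequent. As shares of endothelial barcodes members made up 12.9% (9.24 to 17.3) in CKO+RI, 8.23% (4.45 to 13.7) in Flox+RI and 20.7% (17.4 to 24.4) in Flox+ICI. CKO+RI over Flox+RI gave a ratio of 4.12 (2.14 to 8.44) over kept barcodes and 1.57 (0.814 to 3.21) over endothelial barcodes. Flox+RI over Flox+ICI gave 0.0933 (0.0482 to 0.166) over kept barcodes and 0.397 (0.205 to 0.706) over endothelial barcodes. With every barcode thinned to 1000 UMIs before the definition was applied and shallower ones left out, the CKO+RI share was 0.179% among 8361 of 9036 barcodes. The thinned share was 0.0449% in Flox+RI, where 8903 of 13073 were deep enough, and 0.567% in Flox+ICI, where 9165 of 10692 were. Intervals here and below cover counting error only, and with 1 library per group no difference between conditions could be tested.

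**Figure D1:**
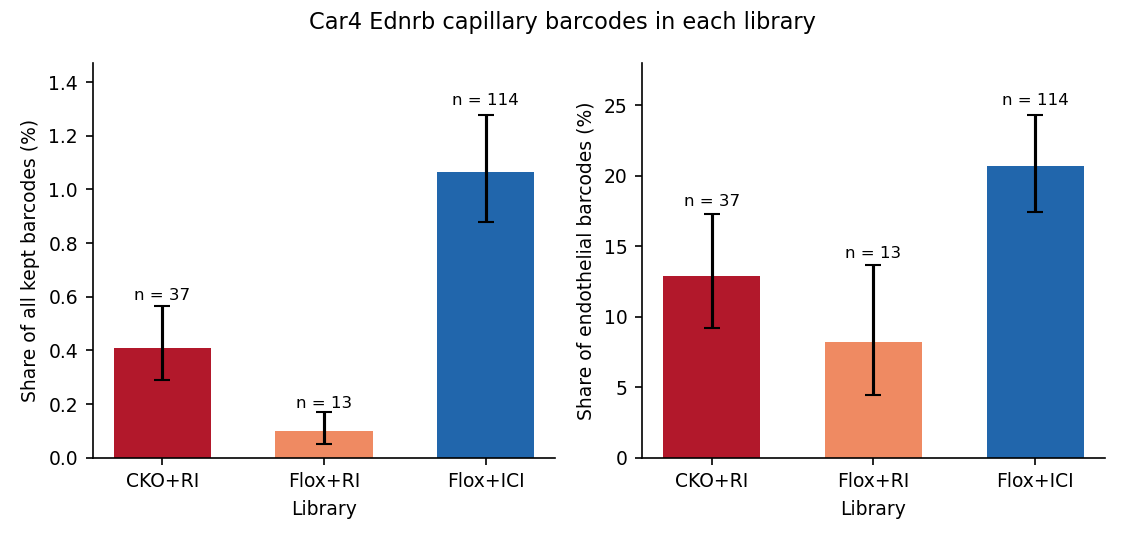
Share of Car4 Ednrb capillary barcodes among all kept barcodes (left panel, %) and among endothelial barcodes (right panel, %) in each library. Bars are shares, whiskers are exact binomial 95% intervals and n is the number of member barcodes; the Flox+RI bar, at 0.0994% and 8.23%, is the lowest in both panels.

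Car4 and Ednrb chose the members, so their levels are a description. Car4 stood at 565 (CKO+RI), 496 (Flox+RI) and 1132 CPM (Flox+ICI) in members, with 92 (CKO+RI), 25 (Flox+RI) and 332 UMIs (Flox+ICI). In other endothelial barcodes, limited by definition to 1 such UMI, it stood at 21.0, 10.02 and 26.2 CPM in those libraries. Ednrb stood at 381 (CKO+RI), 477 (Flox+RI) and 726 CPM (Flox+ICI). Of the members, 116 carried both genes, 32 Car4 without Ednrb and 16 Ednrb without Car4. Just inside the limit lay 37 members with 2 UMIs of the pair (9 in CKO+RI, 4 in Flox+RI, 24 in Flox+ICI), and just outside it 85 barcodes with 1 UMI (28 in CKO+RI, 10 in Flox+RI, 47 in Flox+ICI). The sprouting limit mattered most in Flox+RI, where 13 barcodes met the Car4 Ednrb limit but had at least 2 UMIs of Esm1, Angpt2 and Pgf, beside 4 in CKO+RI and 0 in Flox+ICI. T cell barcodes, which should lack both genes, held Car4 UMIs in 1.35, 0 and 0.649% and Ednrb UMIs in 0.903, 0 and 0.433% of CKO+RI, Flox+RI and Flox+ICI T cells.

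Levels of the 5 endothelial genes of the definition differed by less than 2-fold between the member libraries. Pecam1, an adhesion molecule of cell contacts, was at 872 (CKO+RI), 1291 (Flox+RI) and 1265 CPM (Flox+ICI), and Cdh5, the cadherin of endothelial junctions, at 657 (CKO+RI), 854 (Flox+RI) and 859 CPM (Flox+ICI). Cldn5, a tight junction protein, was at 1781 (CKO+RI), 2859 (Flox+RI) and 3363 CPM (Flox+ICI), Egfl7, a matrix-bound endothelial factor, at 1812 (CKO+RI), 1906 (Flox+RI) and 2230.3 CPM (Flox+ICI), and the receptor gene Tie1 at 178 (CKO+RI), 258 (Flox+RI) and 133 CPM (Flox+ICI). Of the sprouting genes, Esm1 had 0 (CKO+RI), 1 (Flox+RI) and 1 UMIs (Flox+ICI) and Angpt2 had 0 (CKO+RI), 0 (Flox+RI) and 4 UMIs (Flox+ICI). Pgf had 0 (CKO+RI), 0 (Flox+RI) and 1 UMIs (Flox+ICI). Ptprc was at 0 by definition, Krt8 at 67.5 (CKO+RI), 79.4 (Flox+RI) and 75.0 CPM (Flox+ICI) and Krt18 at 18.4 (CKO+RI), 0 (Flox+RI) and 17.1 CPM (Flox+ICI).

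Compared with other endothelial barcodes, members had higher aerocyte genes, with Fibin, Emp2, Tmeff2 and, outside the list, the G protein regulator Rgs6 far above the rest of the endothelium in every library. UMIs were summed per library and set and tested with edgeR's quasi-likelihood test, with the library as a block and Benjamini-Hochberg adjustment. Of 6787 genes tested, 281 were higher in members (4.14%) and 189 lower (2.78%), and the median log2 difference was -0.03. Leaving out the library labelled CKO+RI gave 185 higher and 97 lower of 6126 genes. Leaving out Flox+ICI gave 113 and 82 of 5413, and DESeq2 130 and 42 of 6787. Fibin stood at 172 (CKO+RI), 139 (Flox+RI) and 788 CPM (Flox+ICI) in members, against 9.82, 30.1 and 17.7 CPM in other endothelial barcodes of those libraries (log2 difference 4.47 ± 0.44 SE, edgeR adjusted p = 2.55e-06). A Fibin UMI was found in 57.3% of members, and no member library overlapped the other set, Flox+ICI members being highest. Rgs6 stood at 375 (CKO+RI), 199 (Flox+RI) and 505 CPM (Flox+ICI), against 36.5, 5.01 and 28.3 CPM (log2 difference 3.94 ± 0.30 SE, edgeR adjusted p = 8.45e-08). Emp2, a tetraspan membrane protein of thin alveolar and endothelial cells, stood at 663 (CKO+RI), 298 (Flox+RI) and 996 CPM (Flox+ICI), against 28.1, 17.5 and 102 CPM (log2 difference 3.82 ± 0.28 SE, edgeR adjusted p = 8.45e-08). Rgs6 and Emp2 were higher in every member library than in any library of the other set, with Flox+RI the lowest of the members.

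Other aerocyte genes outside the definition followed. Tmeff2, a membrane protein with EGF-like and follistatin-like domains, stood at 49.1 (CKO+RI), 39.7 (Flox+RI) and 75.0 CPM (Flox+ICI), against 2.81, 0 and 1.42 CPM (log2 difference 5.06 ± 0.82 SE, edgeR adjusted p = 0.000726). Chst1, a keratan sulfate sulfotransferase, stood at 86.0 (CKO+RI), 59.6 (Flox+RI) and 92.1 CPM (Flox+ICI), against 7.02, 22.5 and 7.09 CPM (log2 difference 3.11 ± 0.50 SE, edgeR adjusted p = 0.000686). Pmp22, a relative of Emp2, stood at 399 (CKO+RI), 238 (Flox+RI) and 928 CPM (Flox+ICI), against 54.7, 40.1 and 123 CPM (log2 difference 2.83 ± 0.25 SE, edgeR adjusted p = 6.61e-07), and was found in 76.8% of members. For all 3 genes the lowest member library lay above the highest library of the other set. Enho, which encodes the secreted peptide adropin, rose by 2.76 ± 0.34 (edgeR adjusted p = 5.05e-05), Hopx, a homeodomain-only protein better known from alveolar type 1 cells, by 2.66 ± 0.26 (edgeR adjusted p = 2.55e-06), and Igfbp7, a secreted IGF-binding protein, by 2.58 ± 0.24 (edgeR adjusted p = 1.78e-06), each on the log2 scale. Prx, periaxin, a scaffold protein of the cell cortex, stood at 258 (CKO+RI), 437 (Flox+RI) and 801 CPM (Flox+ICI), against 73.0, 32.6 and 159 CPM (log2 difference 2.42 ± 0.27 SE, edgeR adjusted p = 1.44e-05). Kitl, the ligand of the receptor Kit, stood at 559 (CKO+RI), 1251 (Flox+RI) and 897 CPM (Flox+ICI), against 226, 278 and 318 CPM (log2 difference 1.60 ± 0.21 SE, edgeR adjusted p = 8.81e-05).

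Of the 30 aerocyte genes, 28 were not used by the definition and 26 of those passed the filter on low counts. Of these 26, 21 were higher in members and 0 lower, against 4.14% higher among all genes tested, and their median log2 difference was 2.16. The 5 that did not pass were Apln, a peptide hormone (1.02, edgeR adjusted p = 0.242), the cell cycle inhibitor Cdkn2b (2.54, edgeR adjusted p = 0.229), Sirpa, Nckap5 and Cyb5a. Rprml and Spon2 had 5 and 3 UMIs, all in Flox+ICI members, and were too low to test.

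Among the genes most raised in members were several outside the list. Dpysl5, a collapsin response mediator protein, stood at 18.4 (CKO+RI), 59.6 (Flox+RI) and 85.3 CPM (Flox+ICI), against 2.81, 2.51 and 2.13 CPM (log2 difference 4.43 ± 0.81 SE, edgeR adjusted p = 0.00191). Pde8b, a cAMP phosphodiesterase, stood at 190.4 (CKO+RI), 179 (Flox+RI) and 194 CPM (Flox+ICI), against 18.2, 12.5 and 22.0 CPM (log2 difference 3.31 ± 0.30 SE, edgeR adjusted p = 1.47e-06). Klf12, a Krüppel-like transcription factor, stood at 147 (CKO+RI), 179 (Flox+RI) and 317 CPM (Flox+ICI), against 42.1, 7.52 and 35.4 CPM (log2 difference 2.83 ± 0.35 SE, edgeR adjusted p = 4.49e-05). Pde8b was nearly level across the 3 member libraries, while Dpysl5 was lowest in CKO+RI members and Klf12 highest in Flox+ICI members. Ccdc184 rose by 3.42 ± 0.52 (edgeR adjusted p = 0.000366) and Ccdc68 by 3.36 ± 0.59 (edgeR adjusted p = 0.00143) on the log2 scale, and neither call was kept without the Flox+ICI library.

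Transcription factors of the T-box family rose together. Tbx2 stood at 123 (CKO+RI), 119 (Flox+RI) and 259 CPM (Flox+ICI), against 16.8, 12.5 and 32.6 CPM in other endothelial barcodes (log2 difference 2.98 ± 0.31 SE, edgeR adjusted p = 4.12e-06). Tbx3 stood at 221 (CKO+RI), 179 (Flox+RI) and 375 CPM (Flox+ICI), against 43.5, 27.6 and 82.2 CPM (log2 difference 2.31 ± 0.26 SE, edgeR adjusted p = 1.7e-05). Every member library lay above every other endothelial library for both genes. Tbx3os1, annotated antisense beside Tbx3, rose by 2.93 ± 0.31 (edgeR adjusted p = 6.51e-06), but the sources used here do not state strand use in the counting, so its reads cannot be told apart from those of an overlapping gene. Of 26 endothelial transcription factors tested, 6 were higher and 0 lower, beside 4.14% higher and 2.78% lower over all genes, with a median log2 difference of 0.34. Besides the T-box pair these were Foxf1, a forkhead factor of lung capillaries (0.98, edgeR adjusted p = 0.0132), Epas1, the hypoxia-inducible factor 2 alpha (0.90, edgeR adjusted p = 0.015), Gata2 (0.83, edgeR adjusted p = 0.0473) and the flow-responsive factor Klf4 (0.94, edgeR adjusted p = 0.0155).

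**Figure D2:**
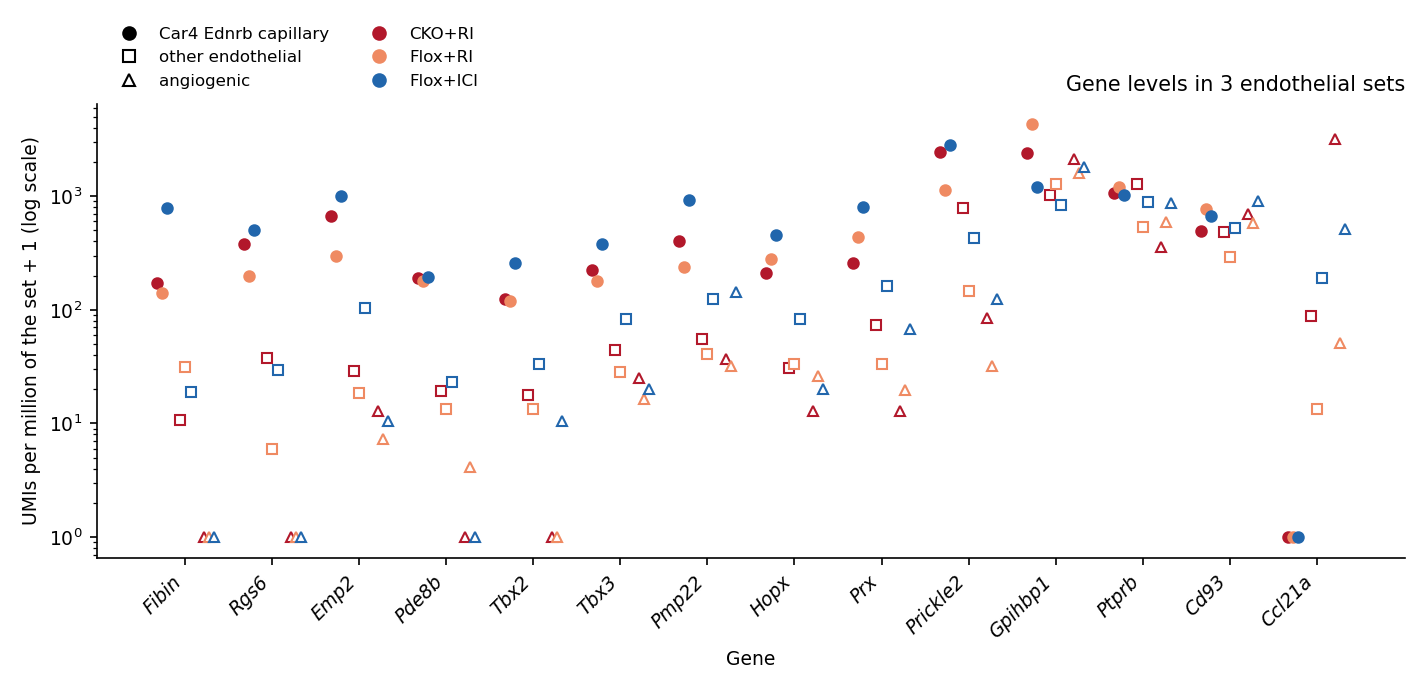
Levels of 14 genes, in UMIs per 1000000 of the set plus 1 on a log axis, in Car4 Ednrb capillary, other endothelial and angiogenic barcodes of each library. Each symbol is 1 library of 1 set; Fibin, Rgs6, Emp2 and Tbx2 lie higher in all 3 capillary sums than in any other sum, Ptprb and Cd93 overlap between sets, and Ccl21a is at 0 in capillary barcodes.

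Genes lower in members included lymphatic, tumour-line and interferon-induced transcripts. Ccl21a, a chemokine of lymphatic vessels, had 0 UMIs in members, against 87.0, 12.5 and 188 CPM in other endothelial barcodes of CKO+RI, Flox+RI and Flox+ICI, at least 22.2-fold lower against a floor of 3 UMIs over all members (edgeR adjusted p = 2.45e-05). DESeq2 did not call it. Sema3a, a secreted guidance cue and a marker of the tumour line, stood at 12.3 (CKO+RI), 19.9 (Flox+RI) and 30.7 CPM (Flox+ICI), against 406, 556 and 391 CPM (log2 difference -4.17 ± 0.34 SE, edgeR adjusted p = 3.51e-07). Cxcl10, an interferon-induced chemokine, stood at 0 (CKO+RI), 19.9 (Flox+RI) and 6.82 CPM (Flox+ICI), against 23.9, 50.1 and 119 CPM (log2 difference -3.69 ± 0.62 SE, edgeR adjusted p = 0.00111), and Gbp5, a guanylate-binding protein of the interferon gamma response, at 0 (CKO+RI), 0 (Flox+RI) and 6.82 CPM (Flox+ICI), against 89.8, 5.01 and 45.4 CPM (log2 difference -3.70 ± 0.75 SE, edgeR adjusted p = 0.00441). Every member library lay under every library of the other set for Sema3a and Cxcl10, whereas Gbp5 overlapped. On the log2 scale the differences of the remaining lowest genes were -3.89 ± 0.99 (edgeR adjusted p = 0.0193) for Ptprn, -3.85 ± 0.99 (edgeR adjusted p = 0.0203) for Cd300c2, -3.57 ± 0.57 (edgeR adjusted p = 0.000631) for Sdk1, -3.45 ± 0.48 (edgeR adjusted p = 0.000146) for Galntl6, -3.38 ± 0.77 (edgeR adjusted p = 0.00974) for Gramd3 and -3.27 ± 0.76 (edgeR adjusted p = 0.0112) for Apoc2.

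Markers of other cell types differed between the same sets, in both directions. Counts of calls are read beside 4.14% higher and 2.78% lower over all genes. The alveolar type 1 list summed to 823 (CKO+RI), 894 (Flox+RI) and 2264 CPM (Flox+ICI) in members, against 463, 205 and 740 CPM in other endothelial barcodes. Of its 5 tested genes 3 were higher and 0 lower, with Hopx shared with the aerocyte list. Of 2 airway genes tested 1 was higher and 0 lower. The summed level of 11 tumour-line genes was 203 (CKO+RI), 238 (Flox+RI) and 215 CPM (Flox+ICI) in members, against 1201, 1263 and 1105 CPM in other endothelial barcodes, and at least 2 UMIs of Sema3a, Hmga2 and Ereg, 3 genes of that list, were found in 3 of 37 (CKO+RI), 0 of 13 (Flox+RI) and, in Flox+ICI, 2 of 114 members, against 30 of 234, 16 of 89 and 53 of 423 of the other set. The macrophage list summed to 602 (CKO+RI), 814 (Flox+RI) and 2329 CPM (Flox+ICI) in members, against 1212, 7135 and 5794 CPM, with 7 of 8 tested genes lower. No member held 2 UMIs of the lymphatic genes Prox1, Mmrn1, Reln and Ccl21a, whereas 5 of 234 (CKO+RI), 1 of 89 (Flox+RI) and, in Flox+ICI, 9 of 423 other endothelial barcodes did. The alveolar type 2 list summed to 645 (CKO+RI), 139 (Flox+RI) and 1156 CPM (Flox+ICI) in members, against 1615, 296 and 3879 CPM, with 5 of 7 tested genes lower. The part of tumour, macrophage, lymphatic and alveolar type 2 transcripts in the lower genes was not tested. Barcodes holding any UMI of these lymphatic or tumour genes or of the macrophage genes C1qa, C1qb, C1qc, Adgre1 and Csf1r were then removed from both sets. In this alternative, chosen after seeing the data, 65 of 2634 genes were higher and 21 lower.

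Against angiogenic barcodes, the sprouting endothelium, members had high Fibin, Rgs6, Emp2 and Tbx2 and low lymphatic, chemokine and matrix transcripts. Of 3320 genes tested, 273 were higher in members (8.22%) and 122 lower (3.67%), with a median log2 difference of -0.01. Leaving out the library labelled CKO+RI gave 92 higher and 29 lower of 4037 genes, and leaving out Flox+RI 31 and 15 of 2871. Leaving out Flox+ICI gave 206 and 64 of 2541, and DESeq2 130 and 34 of 3320. This comparison shares its member sums with the one above. Angiogenic barcodes held no UMI of Fibin, Rgs6 or the adaptor gene Grb14, which were at least 89.2-fold, 73.5-fold and 16.1-fold higher in members against a floor of 3 UMIs over the angiogenic set (edgeR adjusted p = 8.85e-06, 6.72e-06 and 0.00885). Emp2 was at 11.95, 6.22 and 9.57 CPM in angiogenic barcodes of CKO+RI, Flox+RI and Flox+ICI (log2 difference 5.90 ± 0.46 SE, edgeR adjusted p = 1.04e-06). Prickle2, a planar polarity protein, stood at 2444 (CKO+RI), 1132 (Flox+RI) and 2793 CPM (Flox+ICI) in members, against 83.7, 31.1 and 124 CPM in angiogenic barcodes (log2 difference 4.84 ± 0.30 SE, edgeR adjusted p = 1.31e-07). It was also higher than in other endothelial barcodes, at 789, 145 and 424 CPM (log2 difference 2.37 ± 0.24 SE, edgeR adjusted p = 3.05e-06), and was found in 89.0% of members.

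Pde8b rose by 6.12 ± 0.67 (edgeR adjusted p = 2.34e-05), Tbx2 by 5.74 ± 0.71 (edgeR adjusted p = 6.14e-05) and Lmntd1 by 4.92 ± 0.95 (edgeR adjusted p = 0.00261) over angiogenic barcodes on the log2 scale. Scn7a, a sodium channel family member, stood at 233 (CKO+RI), 99.3 (Flox+RI) and 276 CPM (Flox+ICI), against 11.95, 0 and 19.1 CPM (log2 difference 4.53 ± 0.59 SE, edgeR adjusted p = 0.000101). Nkd1, an inhibitor and target of Wnt signalling, stood at 178 (CKO+RI), 79.4 (Flox+RI) and 406 CPM (Flox+ICI), against 0, 6.22 and 19.1 CPM (log2 difference 4.36 ± 0.55 SE, edgeR adjusted p = 8.14e-05). Hpgd, which degrades prostaglandins, stood at 1038 (CKO+RI), 556 (Flox+RI) and 2725 CPM (Flox+ICI), against 11.95, 21.8 and 287 CPM (log2 difference 4.16 ± 0.40 SE, edgeR adjusted p = 6.72e-06). These 3 genes were higher in every member library than in any angiogenic library. Hpgd did not pass the test against other endothelial barcodes, where it was at 1101, 30.1 and 1133 CPM (log2 difference 1.30 ± 0.40 SE, edgeR adjusted p = 0.0572). The remaining leading genes were Krt80 (4.67, edgeR adjusted p = 0.000259), Zfp641 (4.47, 0.00477), Rasgef1a (4.20, 0.00131) and Trerf1 (4.15, 0.00123).

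Lower in members than in angiogenic barcodes were Ccl21a, at 3167, 49.8 and 517 CPM in angiogenic barcodes of CKO+RI, Flox+RI and Flox+ICI and 0 in members (at least 111-fold lower, edgeR adjusted p = 1.04e-06), and 3 further lymphatic genes at 0 in members. Reln, a secreted glycoprotein, was at least 17.9-fold lower, Mmrn1, multimerin, at least 16.6-fold and Fxyd6, a regulator of the sodium pump, at least 10.6-fold, all against the same floor. DESeq2 called none of these 4, and at least 2 UMIs of Prox1, Mmrn1, Reln and Ccl21a were in 2 of 12 (CKO+RI), 2 of 43 (Flox+RI) and, in Flox+ICI, 1 of 13 angiogenic barcodes. Cxcl9, an interferon gamma-induced chemokine, stood at 6.14 (CKO+RI), 0 (Flox+RI) and 13.6 CPM (Flox+ICI) in members, against 418, 3.11 and 364 CPM (log2 difference -4.96 ± 0.50 SE, edgeR adjusted p = 9.51e-06). Nid2, a basement membrane nidogen, was at 0 in members, against 143, 96.5 and 95.7 CPM, at least 17.6-fold lower (edgeR adjusted p = 0.00132). Trp53i11 stood at 147 (CKO+RI), 59.6 (Flox+RI) and 13.6 CPM (Flox+ICI), against 1111, 476 and 373 CPM (log2 difference -3.36 ± 0.39 SE, edgeR adjusted p = 4.24e-05). Prnd differed by -5.36 ± 0.93 (edgeR adjusted p = 0.00124) and Vwa1 by -3.96 ± 0.56 (edgeR adjusted p = 0.000222) on the log2 scale.

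Part of the comparison with angiogenic barcodes depended on single libraries. Without the library labelled CKO+RI, Zfp641 and Prnd lost the call, and without Flox+RI, which holds 43 of the 68 angiogenic barcodes, so did Grb14, Lmntd1, Krt80, Zfp641, Rasgef1a, Nid2 and Vwa1. Of 23 aerocyte genes tested here, 16 were higher and 1, Apln, lower, beside 8.22% higher and 3.67% lower over all genes, with a median log2 difference of 1.92. Apln stood at 30.7 (CKO+RI), 139 (Flox+RI) and 23.9 CPM (Flox+ICI) in members, against 131, 429 and 105 CPM in angiogenic barcodes (log2 difference -1.88 ± 0.38 SE, edgeR adjusted p = 0.00382). Flox+RI was the highest library within both sets, and its members overlapped the angiogenic range.

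General capillary genes were present beside the aerocyte genes. Of 23 tested against other endothelial barcodes, 5 were higher and 0 lower (4.14% of all genes were higher), with a median log2 difference of 0.42. Gpihbp1, which carries lipoprotein lipase to the vessel lumen, stood at 2413 (CKO+RI), 4289 (Flox+RI) and 1200.4 CPM (Flox+ICI), against 1029.9, 1288 and 827 CPM (log2 difference 1.12 ± 0.21 SE, edgeR adjusted p = 0.00257). Flox+ICI members lay under Flox+RI other endothelial barcodes, so the sets overlapped. In Flox+RI members a single barcode held 128 of the 216 Gpihbp1 UMIs. Cd36, a fatty acid transporter, stood at 952 (CKO+RI), 973 (Flox+RI) and 1142 CPM (Flox+ICI), against 554, 193 and 408 CPM (log2 difference 1.44 ± 0.24 SE, edgeR adjusted p = 0.000765), and Tmem100, a target of BMP signalling, at 1001 (CKO+RI), 576 (Flox+RI) and 1494 CPM (Flox+ICI), against 631, 85.2 and 528 CPM (log2 difference 1.46 ± 0.26 SE, edgeR adjusted p = 0.00189). For Cd36 every member library lay above every library of the other set, whereas Tmem100 overlapped. The prostaglandin transporter Slco2a1 (0.76, edgeR adjusted p = 0.0492) and the adhesion receptor Adgre5 (0.84, edgeR adjusted p = 0.0439) were the others. Genes of the list that did not pass included Ptprb, an endothelial phosphatase (0.30), Cd93, a C-type lectin (0.51), and Plvap, the diaphragm protein of fenestrae (0.23), all as log2 differences. Against angiogenic barcodes 13 of 22 were higher and 1, Gng11, lower, beside 8.22% higher over all genes.

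Members were divided by their Gpihbp1 content, a split chosen after its values were seen and given without a test. No Gpihbp1 UMI was found in 20 of 37 (CKO+RI), 5 of 13 (Flox+RI) and, in Flox+ICI, 58 of 114 members, 1 to 4 UMIs in 5, 1 and 24 members of those libraries, and at least 5 in 12, 7 and 32. Median depth was 1219 UMIs in members with none, 2280 with 1 to 4 and 5319 with at least 5. Those with at least 5 held 74.5% (CKO+RI), 88.1% (Flox+RI) and 51.5% (Flox+ICI) of the member UMIs. The 27 aerocyte genes summed per barcode, without Car4, Ednrb and Apln, had medians of 196, 151 and 82.0 UMIs per 10000 in members with no, 1 to 4 and at least 5 Gpihbp1 UMIs.

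Over the 3 libraries together, most aerocyte genes were highest in members without Gpihbp1 UMIs and most general capillary genes in those with at least 5. Of 21 aerocyte genes outside the definition with at least 50 member UMIs, 16 were highest with no, 5 with 1 to 4 and 0 with at least 5 Gpihbp1 UMIs, and of 21 general capillary genes other than Gpihbp1 the counts were 3, 4 and 14. The classes also differ in depth, whose part in these orders was not tested. Fibin stood at 1157, 889 and 212 CPM with no, 1 to 4 and at least 5 Gpihbp1 UMIs and Rgs6 at 945, 771 and 167 CPM, both highest where Gpihbp1 was absent. Nckap5, an aerocyte gene, stood at 318, 654 and 599.9 CPM and Cd24a, another, at 159, 339.8 and 205 CPM, both highest in the middle class. In the same order of classes Cd93 stood at 17.7, 536 and 862 CPM, Ptprb at 52.99, 941 and 1439.8 CPM, the angiopoietin receptor gene Tek at 8.83, 209 and 268 CPM and Kit, the receptor of Kitl, at 0, 91.5 and 129 CPM. Lipoprotein lipase, Lpl, stood at 35.3, 327 and 676 CPM, the endothelin ligand Edn1 at 0, 105 and 152 CPM and the chemokine Cxcl12 at 0, 91.5 and 193 CPM. These 7 were highest where Gpihbp1 was highest, while Tmem100, at 1289, 1307 and 1212 CPM, and Hpgd, at 1537, 2601 and 1967 CPM, were highest in the middle class. The 3 general capillary genes highest without Gpihbp1 were Cd36, at 1510.3, 915 and 941 CPM, Slco2a1, at 1201, 1150.2 and 973 CPM, and Adgre5, at 662, 575 and 373 CPM. Doublets were kept, and the scrublet procedure marked 2 of 37 (CKO+RI), 0 of 13 (Flox+RI) and, in Flox+ICI, 11 of 114 members.

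**Figure D3:**
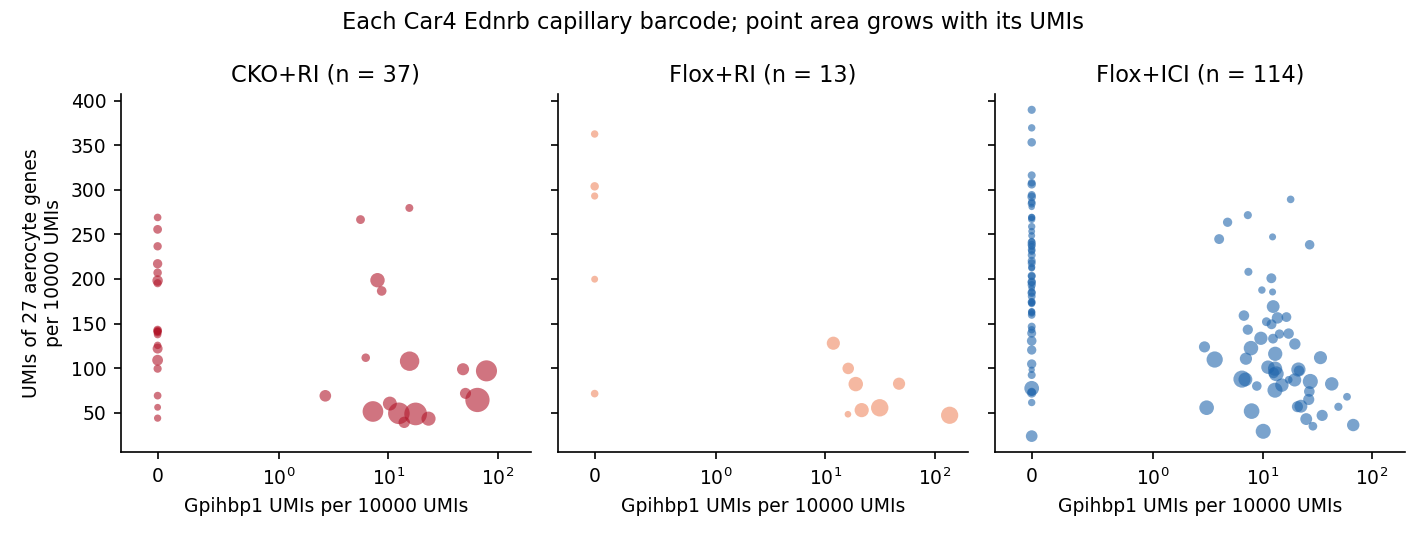
Each point is 1 member barcode, with its Gpihbp1 UMIs per 10000 (horizontal axis, logarithmic above 1) against the UMIs of 27 aerocyte genes per 10000 (vertical axis), by library; point area grows with the barcode's UMIs. Small points at 0 Gpihbp1 reach the highest aerocyte levels and large points with Gpihbp1 lie lower, with class medians of 196, 151 and 82.0 for no, 1 to 4 and at least 5 Gpihbp1 UMIs.

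VEGF receptors were raised in part. Kdr, the VEGF receptor 2, stood at 497 (CKO+RI), 477 (Flox+RI) and 587 CPM (Flox+ICI) in members, against 112, 75.2 and 101 CPM in other endothelial barcodes (log2 difference 2.41 ± 0.23 SE, edgeR adjusted p = 1.78e-06), and 227, 106 and 124 CPM in angiogenic barcodes (log2 difference 1.86 ± 0.32 SE, edgeR adjusted p = 0.00125). The member libraries were close to each other and all above both other sets. The co-receptor Nrp1 rose by 1.60 ± 0.25 (edgeR adjusted p = 0.000582) and the decoy receptor Flt1 by 0.78 ± 0.21 (edgeR adjusted p = 0.0283) over other endothelial barcodes on the log2 scale. Flt1 did not pass against angiogenic barcodes (0.24, edgeR adjusted p = 0.602). Of 13 genes of the VEGF list tested, 3 were higher and 0 lower against other endothelial barcodes, beside 4.14% higher and 2.78% lower over all genes. The counts were 3 of 10 higher (Kdr, Nrp1, Ptprb) and 2 lower (Angptl4, Apln) against angiogenic barcodes, beside 8.22% and 3.67% over all genes.

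Genes of vasoactive signalling other than Ednrb included 5 of 18 that were higher than in other endothelial barcodes and 0 lower, beside 4.14% higher and 2.78% lower over all genes, with a median log2 difference of 0.58. Ace, angiotensin-converting enzyme of the capillary lumen, stood at 909 (CKO+RI), 834 (Flox+RI) and 757 CPM (Flox+ICI), against 428, 326 and 371 CPM (log2 difference 1.11 ± 0.20 SE, edgeR adjusted p = 0.00193), with the member libraries nearly level. Calcrl, the receptor of adrenomedullin, stood at 1517 (CKO+RI), 1172 (Flox+RI) and 1541 CPM (Flox+ICI), against 1096, 328 and 639 CPM (log2 difference 1.12 ± 0.22 SE, edgeR adjusted p = 0.00388), and its partner Ramp2 at 2788 (CKO+RI), 1409.8 (Flox+RI) and 3727 CPM (Flox+ICI), against 1611, 596 and 1498 CPM (log2 difference 1.08 ± 0.19 SE, edgeR adjusted p = 0.00185). Ramp3, another partner of Calcrl, and Slco2a1 were the others. Every member library lay above every other endothelial library for Ace and Calcrl, whereas Flox+RI members had less Ramp2 than CKO+RI and Flox+ICI other endothelial barcodes. Edn1, the ligand of Ednrb, did not pass the test, at 98.3 (CKO+RI), 119 (Flox+RI) and 116 CPM (Flox+ICI) in members, against 67.4, 163 and 145 CPM (log2 difference -0.10 ± 0.30 SE, edgeR adjusted p = 0.909). Ednra, the other endothelin receptor, had 0 (CKO+RI), 0 (Flox+RI) and 5 UMIs (Flox+ICI), and Nos3, endothelial nitric oxide synthase, stood at 30.7 (CKO+RI), 19.9 (Flox+RI) and 34.1 CPM (Flox+ICI). Against angiogenic barcodes 8 of 11 were higher, beside 8.22% of all genes, and 1, the adrenomedullin gene Adm, lower (-1.59, edgeR adjusted p = 0.00902).

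Among genes of carbon dioxide handling other than Car4, 1 of 3 tested was higher, beside 4.14% over all genes. Aqp1, a water channel of capillaries, stood at 1062 (CKO+RI), 854 (Flox+RI) and 764 CPM (Flox+ICI), against 418, 398 and 395 CPM in other endothelial barcodes (log2 difference 1.10 ± 0.21 SE, edgeR adjusted p = 0.00257). The cytosolic carbonic anhydrase Car2 stood at 67.5 (CKO+RI), 338 (Flox+RI) and 64.8 CPM (Flox+ICI), against 47.7, 198 and 69.4 CPM (log2 difference 0.31 ± 0.30 SE, edgeR adjusted p = 0.637), with Flox+RI highest in both sets. Car1, Car3 and Car12 had 0 UMIs in members.

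Components of BMP signalling, which acts through Acvrl1 and Bmpr2 in lung vessels, included 6 of 18 tested that were higher and 1, Ltbp4, that was lower, beside 4.14% higher and 2.78% lower over all genes, while 11 did not pass. Their median log2 difference was 0.38. Acvrl1, a type I receptor, stood at 725 (CKO+RI), 536 (Flox+RI) and 1142 CPM (Flox+ICI), against 519, 200.4 and 469.8 CPM (log2 difference 1.01 ± 0.22 SE, edgeR adjusted p = 0.00806), the type II receptor Bmpr2 at 1112 (CKO+RI), 913 (Flox+RI) and 1558 CPM (Flox+ICI), against 978, 238 and 708 CPM (log2 difference 0.99 ± 0.24 SE, edgeR adjusted p = 0.0162), and the co-receptor endoglin, Eng, at 1038 (CKO+RI), 953 (Flox+RI) and 1019.7 CPM (Flox+ICI), against 796, 348 and 548 CPM (log2 difference 0.84 ± 0.21 SE, edgeR adjusted p = 0.0187). Acvrl1 and Eng were above the other set in every library pair and across libraries, while Bmpr2 in Flox+RI members lay under CKO+RI other endothelial barcodes. The targets Id1, Id3 and Tmem100 were the other 3. Against angiogenic barcodes 9 of 15 were higher, beside 8.22% of all genes, and 1, Smad1, lower. Of 10 Notch genes tested 0 passed in either direction against other endothelial barcodes, beside 4.14% higher and 2.78% lower over all genes.

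Guidance genes included 7 higher and 3 lower of 24 tested, beside 4.14% higher and 2.78% lower over all genes. Sema3f, a secreted semaphorin, stood at 239 (CKO+RI), 238 (Flox+RI) and 327 CPM (Flox+ICI), against 132, 65.1 and 103 CPM (log2 difference 1.40 ± 0.25 SE, edgeR adjusted p = 0.00189), and Sema7a, a membrane-anchored one, at 203 (CKO+RI), 179 (Flox+RI) and 423 CPM (Flox+ICI), against 111, 47.6 and 119 CPM (log2 difference 1.499 ± 0.26 SE, edgeR adjusted p = 0.00151). Both were higher in every member library than in any library of the other set. Sema5a, Sema6a, Plxna2, Nrp1 and the netrin Ntn4 were the other raised genes, and Sema3a, Sema3e and Efna5 the lowered ones. Of 11 Wnt genes, Tspan12, a tetraspanin of the Frizzled-4 complex, and Nkd1 were higher and Tcf7l1 and Znrf3 lower.

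Barrier, flow and adhesion genes passed in small numbers, read beside 4.14% higher and 2.78% lower over all genes. Of 12 junction genes Jup, plakoglobin (1.46, edgeR adjusted p = 0.00302), Ctnnd1 and Esam were higher and 0 lower. Of 12 genes of caveolae and transcytosis Prx, Cavin2, Cav2 and Ehd4 were higher, Ehd4, a membrane-shaping ATPase, at 1105 (CKO+RI), 635 (Flox+RI) and 1589 CPM (Flox+ICI), against 540.2, 283 and 603 CPM (log2 difference 1.18 ± 0.21 SE, edgeR adjusted p = 0.00143). Of 11 flow-response genes Klf4, Sema7a, the receptor S1pr1 and Thbd, the anticoagulant thrombomodulin, were higher, Thbd at 246 (CKO+RI), 238 (Flox+RI) and 532 CPM (Flox+ICI), against 159, 57.6 and 181 CPM (log2 difference 1.30 ± 0.26 SE, edgeR adjusted p = 0.00374). Klf2 stood at 829 (CKO+RI), 298 (Flox+RI) and 1548 CPM (Flox+ICI), against 384, 291 and 807 CPM, and did not pass (log2 difference 0.78 ± 0.24 SE, edgeR adjusted p = 0.0584). Of 7 leukocyte adhesion genes Icam2 (1.72, edgeR adjusted p = 3.2e-05), the sialomucin Cd34 and podocalyxin, Podxl, were higher and Vcam1, an adhesion molecule of activated and large vessels, lower, with 0 (CKO+RI), 0 (Flox+RI) and 5 UMIs (Flox+ICI) in members. Of 7 venous genes Vcam1 and Mgp, matrix Gla protein, were lower (-2.43 and -1.89, edgeR adjusted p = 0.024 and 0.00143) and 0 higher, and of 11 arterial genes Stmn2 was higher and 0 lower.

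Among immune genes, Cxcl9, Cxcl10, Cxcl1 and Ccl2 were lower than in other endothelial barcodes. They were 4 of 15 chemokine and cytokine genes tested, of which 0 were higher and 11 did not pass, with a median log2 difference of -0.11, beside 4.14% higher and 2.78% lower over all genes. Of 27 genes of class I antigen presentation and the interferon gamma response, Gbp5, Cxcl9 and Cxcl10 were lower and the other 24 did not pass, H2-K1 among them at 2082 (CKO+RI), 1231 (Flox+RI) and 2264 CPM (Flox+ICI), against 1316, 1009.6 and 1750.4 CPM. None of 6 MHC class II or 14 type I interferon genes passed in edgeR's test, beside 4.14% higher and 2.78% lower over all genes. Of 15 p53 targets 3 were higher, the cell cycle inhibitor Cdkn1a (1.14, edgeR adjusted p = 0.00144), Phlda3 (1.30, 0.00193) and Trp53inp1 (1.76, 0.00121). Of 16 hypoxia and glycolysis genes Eno1 and Hk2 were lower, and 5 of 13 were lower against angiogenic barcodes, beside 3.67% over all genes there. At least 2 UMIs of Sema3a, Hmga2 and Ereg were in 4 of 12 (CKO+RI), 9 of 43 (Flox+RI) and, in Flox+ICI, 3 of 13 angiogenic barcodes. The 11 tumour-line genes summed to 287, 398 and 172 CPM there, against 203, 238 and 215 CPM in members of those libraries. The part of tumour transcripts in this comparison was not tested.

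Part of the matrix genes was lower in members than in the angiogenic set. Of 16 tested, 7 were lower than in angiogenic barcodes and 0 higher, beside 3.67% lower over all genes, with a median log2 difference of -0.87. Col4a1, a chain of basement membrane collagen, stood at 1412 (CKO+RI), 2522 (Flox+RI) and 679 CPM (Flox+ICI), against 2701, 2934 and 1732 CPM (log2 difference -0.80 ± 0.24 SE, edgeR adjusted p = 0.0375), Sparc, a collagen-binding protein, at 2211 (CKO+RI), 4746 (Flox+RI) and 658 CPM (Flox+ICI), against 3621, 5199 and 2775 CPM (log2 difference -0.93 ± 0.28 SE, edgeR adjusted p = 0.0432), and Hspg2, perlecan, at 104 (CKO+RI), 99.3 (Flox+RI) and 10.2 CPM (Flox+ICI), against 502, 327 and 220.1 CPM (log2 difference -2.58 ± 0.41 SE, edgeR adjusted p = 0.000621). In each of them Flox+ICI members were under every angiogenic library, while Col4a1 and Sparc in Flox+RI members lay within the angiogenic range. Of 15 sprouting genes outside the definition, 8 were lower and 1, Nrp1, higher. The angiogenic set was picked by sprouting genes, so lower levels of genes found together with them follow in part from the definition. Outside the sprouting list, the semaphorin receptor Plxnd1 differed by -2.60 ± 0.38 (edgeR adjusted p = 0.00027) and the transcription factor Mecom by -2.43 ± 0.42 (edgeR adjusted p = 0.00127) on the log2 scale.

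CKO+RI members, set against those of Flox+RI, differed in a modest number of genes by summed level. Among 684 genes with at least 50 UMIs in the pair, 56 (8.19%) had a CKO+RI to Flox+RI ratio of at least 2 and 31 (4.53%) of at most 0.5, and the median log2 ratio was -0.10. These values compare 37 barcodes of 1 library with 13 of another and carry no replicate check. CKO+RI members held 162843 UMIs and Flox+RI members 50362, so genes high in CKO+RI reached 50 UMIs more easily. Itm2b, a membrane protein of wide expression, was at 2788 CPM in CKO+RI and 993 CPM in Flox+RI members, a ratio of 2.81 (2.09 to 3.84), where brackets give the exact 95% counting interval. Id3, a BMP target, was at 571 CPM in CKO+RI and 139 CPM in Flox+RI members, a ratio of 4.11 (1.92 to 10.5). Tspan7, a tetraspanin, was at 779.9 CPM in CKO+RI and 238 CPM in Flox+RI members, a ratio of 3.27 (1.81 to 6.50). Mgll, monoglyceride lipase, had 54 UMIs in CKO+RI members and 0 in Flox+RI members, 5.57 times the floor of 3 counts. Lpl, at 381 CPM in CKO+RI and 59.6 CPM in Flox+RI members, had a ratio of 6.39 (2.09 to 31.8), and the uncharacterised transcript AY036118 one of 4.56 (2.24 to 10.8).

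Genes of immune and alveolar cells also had higher levels in CKO+RI members. S100a9, a neutrophil protein, was at 405 CPM in CKO+RI and 19.9 CPM in Flox+RI members, a ratio of 20.4 (3.54 to 818), and T cell barcodes held it at 359.7, 95.1 and 793 CPM in CKO+RI, Flox+RI and Flox+ICI. Sftpc, the surfactant protein of alveolar type 2 cells, was at 442 CPM in CKO+RI and 99.3 CPM in Flox+RI members, a ratio of 4.45 (1.82 to 14.1), against 234, 155 and 1302 CPM in T cells of the 3 libraries. The neutrophil chemoattractant Cxcl2 was at 583 CPM in CKO+RI and 79.4 CPM in Flox+RI members, a ratio of 7.35 (2.78 to 27.5), and was found in 10.8% of CKO+RI and 15.4% of Flox+RI members. Ccl5, a T cell chemokine, had 69 UMIs in 10.8% of CKO+RI members and 0 in Flox+RI members, 7.11 times the floor, or 2.13 with each barcode given the same weight. The part of free RNA in these member values was not tested. Haemoglobin also stood out, with 9071 UMIs (5.57% of member UMIs) nearly all in 3 CKO+RI barcodes, against 1 UMI in Flox+RI and 83 in Flox+ICI members.

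Genes with lower levels in CKO+RI than in Flox+RI members included 3 of 7 matrix genes at a ratio of at most 0.5 and 0 at 2 or more, beside 4.53% and 8.19% of all genes. Sparc was at 2211 CPM in CKO+RI and 4746 CPM in Flox+RI members, a ratio of 0.466 (0.394 to 0.551), Col4a2, the partner chain of Col4a1, at 737 CPM in CKO+RI and 1906 CPM in Flox+RI members, a ratio of 0.387 (0.293 to 0.511), and Timp3, a metalloproteinase inhibitor, at 522 CPM in CKO+RI and 1311 CPM in Flox+RI members, a ratio of 0.398 (0.285 to 0.558). Actb had a ratio of 0.469 (0.401 to 0.550), the tubulin Tuba1b 0.302 (0.190 to 0.478) and Hmgb1, a chromatin protein, 0.351 (0.238 to 0.520). Tmem252 was at 442 CPM in CKO+RI and 1330.4 CPM in Flox+RI members, a ratio of 0.332 (0.235 to 0.471), and was found in 16.2% of CKO+RI and 53.8% of Flox+RI members. Pcdh17, a protocadherin, had a ratio of 0.288 (0.182 to 0.453), the secretoglobin Scgb3a1 0.283 (0.169 to 0.470) and the zinc finger factor Tshz2 0.301 (0.183 to 0.493). With each barcode given the same weight, the ratio of Tuba1b was 0.818.

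Car4 had a CKO+RI to Flox+RI ratio of 1.14 (0.725 to 1.85) and Ednrb of 0.799 (0.491 to 1.34). Among 11 aerocyte genes with enough UMIs, 2 had ratios of at least 2 and 1 of at most 0.5, with Emp2 at 2.23 (1.29 to 4.12), Foxf1 at 2.21 (0.997 to 5.78) and Kitl at 0.447 (0.320 to 0.626). Kdr had a ratio of 1.04 (0.655 to 1.72) and Ace of 1.09 (0.769 to 1.57), with intervals that hold 1. Of 9 BMP genes 5 had a ratio of at least 2 and 0 of at most 0.5, and of 15 general capillary genes 4 and 0, beside 8.19% and 4.53% of all genes. Klf2 had a ratio of 2.78 (1.63 to 5.11), Flt1 of 0.487 (0.410 to 0.579) and Gpihbp1 of 0.563 (0.475 to 0.667). The Gpihbp1 ratio rests on few barcodes, the richest holding 127 and 114 UMIs in CKO+RI and 128 in Flox+RI. Members rich in Gpihbp1 held 74.5% of the CKO+RI and 88.1% of the Flox+RI member UMIs, and among members without Gpihbp1 UMIs the ratio of Itm2b was 1.20 and that of S100a9 3.26.

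Between Flox+RI and Flox+ICI, which differ by radiation in the labels, more of the measured genes were lower than higher in Flox+RI members. Of 1346 genes with at least 50 UMIs in the pair, 99 (7.36%) had a Flox+RI to Flox+ICI ratio of at least 2 and 289 (21.5%) of at most 0.5, with a median log2 ratio of -0.15. Flox+ICI members held 293233 UMIs and Flox+RI members 50362, so genes high in Flox+ICI reached 50 UMIs more easily. The part of this limit in the excess of lower genes was not tested. This comparison uses the same 13 Flox+RI barcodes as the one above. Tmem252, a transmembrane protein, was at 1330.4 CPM in Flox+RI and 30.7 CPM in Flox+ICI members, a ratio of 43.3 (21.5 to 98.9), and was found in 53.8% of Flox+RI and 5.26% of Flox+ICI members. Sparc was at 4746 CPM in Flox+RI and 658 CPM in Flox+ICI members, a ratio of 7.21 (5.94 to 8.76), Col4a1 at 2522 CPM in Flox+RI and 679 CPM in Flox+ICI members, a ratio of 3.72 (2.95 to 4.67), and Col4a2 at 1906 CPM in Flox+RI and 399 CPM in Flox+ICI members, a ratio of 4.78 (3.61 to 6.31). Hdac9, a histone deacetylase, had a ratio of 8.63 (5.27 to 14.3), the cAMP phosphodiesterase Pde4d 5.63 (3.85 to 8.21), the actin-binding Tmsb10 4.96 (3.67 to 6.68), the glycolytic enzyme Pkm 4.03 (3.08 to 5.26) and Pdlim1 4.50 (2.79 to 7.20). Of 9 matrix genes 5 had ratios of at least 2 and 2 of at most 0.5, beside 7.36% and 21.5% of all genes.

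Gpihbp1 was at 4289 CPM in Flox+RI and 1200.4 CPM in Flox+ICI members, a ratio of 3.57 (3.002 to 4.24), or 2.70 with each barcode given the same weight. A single barcode held 128 of the 216 Flox+RI UMIs of Gpihbp1, and it had no UMI of Car4, Emp2, Fibin or Hpgd. Flt1 had a ratio of 2.80 (2.38 to 3.30), Cd34 of 2.63 (1.73 to 3.92) and Emcn, an endothelial sialomucin, of 3.49 (1.93 to 6.17). Some genes found in the other libraries were nearly missing from Flox+ICI members. Igfbp3, an IGF-binding protein, had 123 (CKO+RI), 24 (Flox+RI) and 3 UMIs (Flox+ICI), the junction protein Jam2 48 (CKO+RI), 15 (Flox+RI) and 3 UMIs (Flox+ICI), the cadherin Cdh13 61 (CKO+RI), 20 (Flox+RI) and 8 UMIs (Flox+ICI) and the fatty acid-binding protein Fabp4 23 (CKO+RI), 17 (Flox+RI) and 0 UMIs (Flox+ICI). In Flox+ICI these came from the largest of the 3 member sets.

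Early-response and part of the capillary genes were lower in Flox+RI than in Flox+ICI members. Of 19 general capillary genes, 3 had ratios of at least 2, Gpihbp1 among them, 9 of at most 0.5 and 7 neither. Over all genes the shares were 7.36% and 21.5%. Klf4 was at 218 CPM in Flox+RI and 1623 CPM in Flox+ICI members, a ratio of 0.135 (0.0667 to 0.243), and Egr1, an immediate early factor, at 39.7 CPM in Flox+RI and 522 CPM in Flox+ICI members, a ratio of 0.0761 (0.00914 to 0.280). Hpgd was at 556 CPM in Flox+RI and 2725 CPM in Flox+ICI members, a ratio of 0.204 (0.135 to 0.297), and Cdkn1a at 834 CPM in Flox+RI and 2984 CPM in Flox+ICI members, a ratio of 0.279 (0.200 to 0.381). Of 14 immediate early and heat shock genes, 1 had a ratio of at least 2 and 8 of at most 0.5, and of 7 p53 targets 0 and 6, beside 21.5% at most 0.5 over all genes. Sema3c, a secreted semaphorin, was at 39.7 CPM in Flox+RI and 563 CPM in Flox+ICI members, a ratio of 0.0706 (0.00848 to 0.259), Auts2 had a ratio of 0.0751 (0.00902 to 0.276) and Lpl of 0.0981 (0.0200 to 0.291). With each barcode given the same weight, the ratio of Klf4 was 0.274 and that of Sema3c 0.283. Sema5a and Chka, choline kinase, had 0 UMIs in Flox+RI members and 96 and 84 in Flox+ICI members, so the floor of 3 counts in Flox+RI gave 0.182 and 0.208 of the Flox+ICI level.

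Single airway, alveolar and neutrophil transcripts were lower too. The airway list of 8 genes as a whole was not, summing to 715 CPM in Flox+RI and 641 CPM in Flox+ICI members. Its Scgb3a1 stood at 695 CPM in Flox+RI members and was found in 23.1% of them. Scgb1a1, the secretoglobin of club cells, had 0 UMIs in Flox+RI members and 185 in Flox+ICI members, Sftpc was at 99.3 CPM in Flox+RI and 866 CPM in Flox+ICI members, a ratio of 0.115 (0.0369 to 0.271), and S100a9 at 19.9 CPM in Flox+RI and 750.3 CPM in Flox+ICI members, a ratio of 0.0265 (0.000667 to 0.149). T cell barcodes, which should lack Scgb1a1 and Sftpc, held Scgb1a1 UMIs in 52.4, 18.2 and 77.9% and Sftpc UMIs in 74.9, 42.5 and 71.0% of CKO+RI, Flox+RI and Flox+ICI cells. In members the shares were 54.1, 0 and 78.1% and 81.1, 30.8 and 71.9% in the same libraries. In Flox+RI no member held Scgb1a1. The part of free RNA in these values was not tested.

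Aerocyte genes had mostly lower summed levels in Flox+RI than in Flox+ICI members, but not among members without Gpihbp1 UMIs. Of 21 with enough UMIs, 10 had ratios of at most 0.5 and 0 of at least 2, beside 21.5% of all genes at most 0.5. Fibin had a ratio of 0.176 (0.0702 to 0.369), Rgs6 of 0.393 (0.185 to 0.744), Emp2 of 0.299 (0.165 to 0.502) and Tbx3 of 0.476 (0.212 to 0.938). Car4 had a ratio of 0.438 (0.280 to 0.659) and Ednrb of 0.656 (0.411 to 1.003). Kdr, at 0.812 (0.507 to 1.25), Ace, at 1.10 (0.772 to 1.54), Cdh5, at 0.994 (0.702 to 1.38), and Pecam1, at 1.02 (0.771 to 1.33), had intervals that hold 1. Of 11 BMP genes 7 had ratios of at most 0.5 and 0 of at least 2. Members with at least 5 Gpihbp1 UMIs held 88.1% of Flox+RI and 51.5% of Flox+ICI member UMIs. Among members without Gpihbp1 UMIs, 5 in Flox+RI and 58 in Flox+ICI, the ratio of Klf4 was 0.768, of Sema5a 0.830 and of Col4a1 1.47. In that class 13 of the 21 aerocyte genes had higher and 8 lower levels in Flox+RI members, which held 133 UMIs of them. Rgs6 stood there at 1119.6 CPM in Flox+RI and 869 CPM in Flox+ICI, Tbx2 at 933 and 506 CPM, Prx at 1866 and 1115 CPM and Kdr at 2053 and 998 CPM. Fibin, at 746 and 1504 CPM, and Emp2, at 560 and 1154 CPM, were lower in Flox+RI members there too. The Flox+RI levels of these genes rest on 6 (Rgs6), 5 (Tbx2), 10 (Prx), 11 (Kdr), 4 (Fibin) and 3 UMIs (Emp2). The direction of any single gene there is therefore uncertain. With at least 5 Gpihbp1 UMIs, 4 of the 21 were higher and 17 lower.

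**Figure D4:**
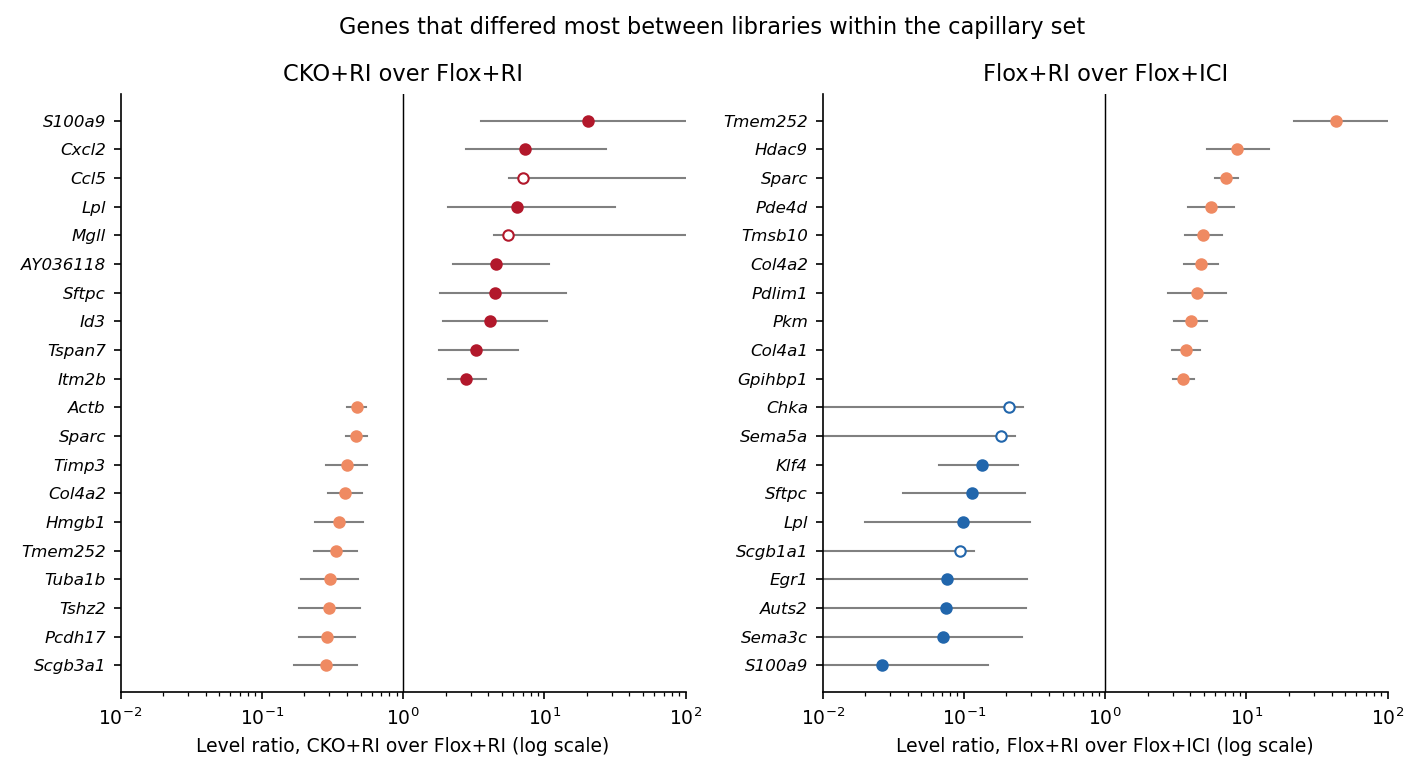
Ratio of summed level with its exact 95% counting interval (horizontal log axis) for the genes named by rule, for CKO+RI over Flox+RI members (left) and Flox+RI over Flox+ICI members (right). Open points are set against a floor of 3 counts; S100a9 has the highest ratio on the left, at 20.4, and Tmem252 on the right, at 43.3.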

How the data were processed

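The authors deposited 1 matrix of UMI counts per gene and barcode for each of 3 single-cell RNA-seq libraries, not normalised, made with Cell Ranger (6.1.2 per the file headers, 6.0 per the submitters' processing notes) on build mm10, GRCm38, per the same notes, which also name Seurat 5.0.3. Groups came from the sample titles. Free RNA and doublets remain in such counts.

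A barcode was kept if it had 200 genes or more and no more than 20% of its UMIs from mitochondrial genes, which left 9036 (CKO+RI), 13073 (Flox+RI) and 10692 (Flox+ICI) of 33482 in all. Members and 2 other endothelial sets were taken by fixed UMI limits. Doublets were marked by scrublet (scanpy 1.11.5) and removed only as an alternative. The members, gene lists and tests were chosen with earlier results of these data known.

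UMIs were summed per library and set, as cells are not replicates, and tested with edgeR 4.0.16 in R 4.3.3 (TMM, filterByExpr, quasi-likelihood test, library as a block because both sums come from 1 library, Benjamini-Hochberg, call at adjusted p under 0.05). The p-values measure the spread over 3 libraries of different groups. Genes of the definition were left out of counts of calls. Between libraries, with 1 per group, no test was made. Ratios of CPM carry exact conditional binomial 95% intervals, over genes with at least 50 UMIs in the pair, and a gene at 0 was set against 3 counts. Member sums were 162843 (CKO+RI), 50362 (Flox+RI) and 293233 UMIs (Flox+ICI), so a floor of 3 counts differs between libraries. A gene high in the larger sum of a pair also reaches 50 UMIs more easily. The code was tested on simulated counts.

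Named genes were the 15 highest and 10 lowest per set comparison by log2 difference among calls with 1 direction in 3 libraries and at least 30 UMIs in the higher set, and the 10 highest and 10 lowest per library comparison by the interval bound nearest 1, in at least 10% of the higher library's members. Mitochondrial, ribosomal, haemoglobin, immunoglobulin, receptor, sex-linked, Gm and Rik genes were left out of both. A gene that the rule names against angiogenic barcodes is not reported here. List genes and a few genes named after their values were seen (Jam2, Igfbp3, Cdh13, Fabp4, Emcn and the Gpihbp1 classes) are given beside them. Other tools were Python 3.11.15, scipy 1.17.1 and, as an alternative, DESeq2 1.42.0.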

Additional observations from a re-analysis of the deposited data

How the results depend on the processing

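No gene named by rule changed direction where an alternative could measure it, but the larger of a pair of counts did turn, as given here. Single genes among members without Gpihbp1 UMIs turned too, such as Rgs6 and Tbx2 between Flox+RI and Flox+ICI, on 6 and 5 Flox+RI UMIs. When thinned, 3 of 25 genes named against angiogenic barcodes could be compared. Of the 20 named per library comparison, 1 could be for CKO+RI with Flox+RI and 2 for Flox+RI with Flox+ICI. With each barcode weighted equally, 8 of 20 CKO+RI to Flox+RI ratios shifted in size. Without Gpihbp1 UMIs, 6 Flox+RI to Flox+ICI ratios shifted and 1 held. Shares of kept barcodes fell with stricter membership. Thinned to 1000 UMIs per barcode they were 0.179% (CKO+RI), 0.0449% (Flox+RI) and 0.567% (Flox+ICI), with a UMI required in each of Car4 and Ednrb 0.221%, 0.0459% and 0.842%, and with at least 3 UMIs of the pair 0.842% in Flox+ICI. The order of the libraries was the same in all of these. Members against other endothelial barcodes gave 281 higher and 189 lower of 6787 genes. DESeq2 gave 130 and 42 of 6787, with 791 of these lacking an adjusted p. Thinned, the counts were 86 and 100 of 2142 genes, and with no filter 260 and 325 of 18950. Leaving out 1 library each gave 113 to 278 and 82 to 162 of 5413 to 7579 genes, lowest without Flox+ICI. Without barcodes carrying lymphatic, macrophage or tumour UMIs, 65 and 21 of 2634 passed. Without the library block the paired sums gave 37 higher and 10 lower of 5973. Against angiogenic barcodes, 273 higher and 122 lower of 3320 genes became 130 and 34 with DESeq2 and 120 and 38 of 2703 without the library block. Thinned, 20 and 11 of only 160 genes passed. Leaving out 1 library each gave 31 to 206 and 15 to 64 of 2541 to 4037 genes, lowest without Flox+RI. Without marker-carrying barcodes 69 and 11 of 651 passed, with 1 (CKO+RI), 10 (Flox+RI) and 6 (Flox+ICI) angiogenic barcodes left. For members without Gpihbp1 UMIs the counts were 275 and 202 of 2236. Between CKO+RI and Flox+RI members, 56 higher and 31 lower of 684 genes past the fold became 249 and 159 of 2055 from 20 UMIs. Thinned, they were 4 and 3 of 34, and without Gpihbp1 UMIs 10 and 4 of 90. In the same order of higher and lower, at least 3 UMIs of Car4 and Ednrb gave 32 and 26 of 540 genes. Weighting each barcode equally gave 55 and 67 of 684, and scaling by the median ratio 67 and 19 of 684. Without doublets the counts were 50 and 20 of 612, and without the haemoglobin-rich members 45 and 15 of 552. Between Flox+RI and Flox+ICI members, 99 higher and 289 lower of 1346 genes became 297 and 692 of 3455 from 20 UMIs. Thinned, they were 25 and 30 of 179, and without Gpihbp1 UMIs 14 and 33 of 252. Thinning and leaving out members tests fewer UMIs and genes, so counts are read beside the number tested. The settings on markers, Gpihbp1 and haemoglobin were chosen after seeing the data.

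Depth limits the library comparisons, which rest on 13 Flox+RI members. Calls of named genes lost were Ccl21a and Apoc2 with DESeq2, Ptprn and Sdk1 without the block, Ccdc184, Ccdc68 and Ptprn without Flox+ICI, Ptprn at 10% mitochondrial UMIs, Ccdc184 when thinned, Cd300c2 with at least 3 UMIs of Car4 and Ednrb, and Gbp5, Cxcl10 and Sdk1 without Gpihbp1 members.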
